A study of Homo sapiens with 34 samples.

Results

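RNA sequencing counts were compared between H1 human ESCs carrying an shRNA against NKX2-5 and H1 cells carrying an shRNA against ZNF503. Both were at day 6 of differentiation along the cardiac lineage. The comparison took the libraries that the labels give as day 6 NKX2-5 shRNA and day 6 ZNF503 shRNA, which are 4 of the 34 libraries of the series, 2 for each line. H1 is an established human embryonic stem cell line. Both lines had been infected with a lentiviral shRNA vector and selected with puromycin, and each line carried the single shRNA that the authors chose by knockdown efficiency, so that differences between the lines cannot be told apart from differences between the shRNAs or the infected populations. For differentiation, cells were first treated with the GSK3β inhibitor CHIR99021 and then with the WNT inhibitor IWP2, and day 0 cells precede both. The labels also list insulin for all libraries, which by the paper's methods was added only after day 6. WT denotes H1 cells infected with an shRNA against GFP or with an empty vector, and its day 6 values (2 libraries) are given as the background beside those of the knockdown lines. Day 0 and day 2 libraries of the same lines (2 for each line and day) were used for the time course. The day 10 libraries were not analysed here for this line pair.

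NKX2-5 is a homeobox transcription factor of the early heart field that binds the regulatory regions of contractile and ion channel genes together with GATA4, TBX5 and other factors. ZNF503 is a zinc finger protein of the NET family, whose members act mostly as transcriptional repressors. Cells that leave the pluripotent state under WNT activation pass through a mesendodermal stage from which heart, blood, vessel and gut endoderm progenitors can all arise, and a culture that does not become cardiac can hold cells of any of these lineages.

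The day 6 libraries held from 13807473 to 61514547 counts, with 27313939 and 50878538 in NKX2-5 shRNA cells and 19425789 and 25038613 in ZNF503 shRNA cells. Values are CPM, the counts of a gene relative to the TMM-scaled library total, a log2 fold change is NKX2-5 shRNA minus ZNF503 shRNA, so that a positive value is a higher level in NKX2-5 shRNA cells, and its error is the standard error (SE). A count of 3 corresponded to 0.108 and 0.0586 CPM in the NKX2-5 shRNA libraries and to 0.150 and 0.119 CPM in the ZNF503 shRNA libraries. Replicates differed by more than sampling noise in both lines, with a chi-square per gene of 16 for NKX2-5 shRNA and 21.5 for ZNF503 shRNA. The labels number the samples as replicates, and the paper calls them biological replicates. Neither says whether they came from separate cultures. The day 6 p-values rest on the spread between replicates over all day 6 groups, including WT and a further shRNA line of the series.

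NKX2-5 was lower in its own line than in ZNF503 shRNA cells, and ZNF503 did not separate the lines. NKX2-5 (GRCh37 chr5:172659112-172662314) was at 0.975 and 0.742 CPM in NKX2-5 shRNA cells, at 2.84 and 2.03 CPM in ZNF503 shRNA cells and at 83.2 and 49.3 CPM in WT cells. The lines did not overlap, and both were far below WT, at 1.30% of the WT mean in NKX2-5 shRNA cells and 3.67% in ZNF503 shRNA cells. The log2 fold change between the lines was -1.52 (SE 0.34, adjusted p = 0.0124 in edgeR's quasi-likelihood test with Benjamini-Hochberg adjustment). That call rested on single libraries, since the adjusted p was 0.0954 without NKX2-5 shRNA replicate 2 and 0.142 without ZNF503 shRNA replicate 1. ZNF503 (GRCh37 chr10:77157588-77161522) was at 0.578 and 0.879 CPM in NKX2-5 shRNA cells, at 0.598 and 0.635 CPM in ZNF503 shRNA cells and at 8.62 and 9.13 CPM in WT cells. Its libraries overlapped between the lines, at 8.21% and 6.95% of the WT mean, and the difference of 0.28 (SE 0.34) did not pass the test (adjusted p = 0.61). The ZNF503 level at day 6 therefore does not tell the libraries labelled ZNF503 shRNA from those labelled NKX2-5 shRNA. At day 2 ZNF503 was at 1.01 and 1.85 CPM in ZNF503 shRNA cells, 1.44 and 1.72 CPM in NKX2-5 shRNA cells and 1.16 and 2.12 CPM in WT cells. At day 0 it was at 0.153 and 0.106 CPM in ZNF503 shRNA cells and at 0.103 and 0.102 CPM in WT cells. A lower ZNF503 level in its own line than in WT was thus not seen at these days, when WT levels were low too. ZEB2, the zinc finger repressor targeted in a further line of the series, was at 20.2 and 20.0 CPM in NKX2-5 shRNA cells and at 10.7 and 12.5 CPM in ZNF503 shRNA cells, against 95.7 and 92.0 CPM in WT cells.

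Of 16443 genes tested, 65 (0.395%) had a fitted difference between the lines of at least 8-fold at 1% FDR, which is the threshold used for a call below. Of these, 39 (0.237%) were higher in NKX2-5 shRNA cells and 26 (0.158%) were higher in ZNF503 shRNA cells. The lower line had no count for 9 of the 39 and 1 of the 26, and there the fitted fold depends on the prior count. Set against 3 counts per library, all of these except MIR4458HG (at least 13.0-fold) and DDX43 (at least 20.1-fold) were below 8-fold. These lower bounds ran from at least 3.26-fold for CKM to at least 7.53-fold for BHMT2. At 5% FDR without a fold threshold 2422 genes (14.7%) differed, 973 (5.92%) higher in NKX2-5 shRNA cells and 1449 (8.81%) higher in ZNF503 shRNA cells. Most of these differences were small, since 348 of the 973 and 559 of the 1449 reached a 2-fold change. The libraries of the lines did not overlap for any of the 65 called genes, and they did not overlap for 60.3% of all genes tested. The same threshold called more genes in each line against WT, 774 (4.71%) for NKX2-5 shRNA and 643 (3.91%) for ZNF503 shRNA, in comparisons that share the WT libraries. Of all genes, 1.29% were higher and 3.42% lower than WT in NKX2-5 shRNA cells, and 1% were higher and 2.91% lower than WT in ZNF503 shRNA cells. When each of the 4 libraries was left out in turn, 23 of the 65 genes were called every time, 12 higher in NKX2-5 shRNA cells and 11 higher in ZNF503 shRNA cells. Without ZNF503 shRNA replicate 1 the number of calls was 29, of which 25 were among the 65.

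**Figure D1:**
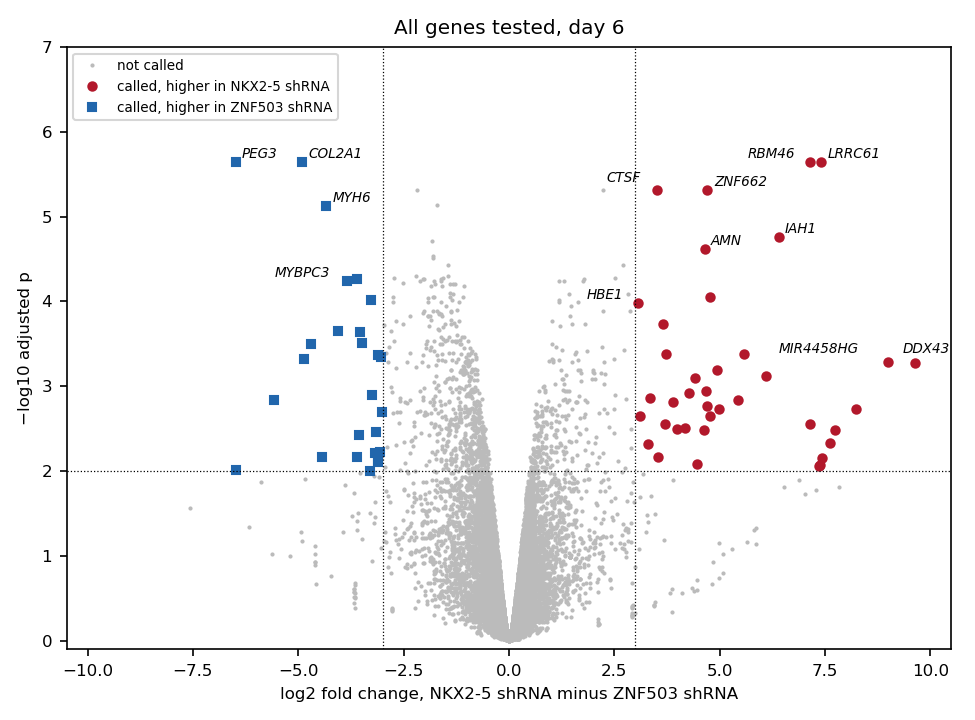
Each of the 16443 genes tested at day 6, with the log2 fold change (NKX2-5 shRNA minus ZNF503 shRNA) on the x axis and −log10 of the adjusted p on the y axis. Dotted lines mark 8-fold and 1% FDR, and the 39 called genes higher in NKX2-5 shRNA cells (red circles) and the 26 higher in ZNF503 shRNA cells (blue squares) lie outside them.

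Most of the listed sarcomere genes, which build the contractile apparatus, were higher in ZNF503 shRNA cells than in NKX2-5 shRNA cells. Of 26 sarcomere genes tested, 19 were higher in ZNF503 shRNA cells at 5% FDR and 0 were higher in NKX2-5 shRNA cells, against 8.81% and 5.92% of all genes. The median log2 fold change of the list was -1.61, and that of all genes was 0.00036. Leaving out 1 library gave from 13 to 20 of these genes. In bulk RNA fewer cells of a type and less RNA per cell cannot be told apart.

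MYH6 (GRCh37 chr14:23851191-23877482), the alpha myosin heavy chain of the early and atrial myocardium, was at 0.650 and 0.449 CPM in NKX2-5 shRNA cells, at 13.6 and 7.94 CPM in ZNF503 shRNA cells and at 4569 and 3862 CPM in WT cells. Both ZNF503 shRNA libraries were above both NKX2-5 shRNA libraries and all 4 were far below WT. The log2 fold change between the lines was -4.33 (SE 0.30, adjusted p = 7.6e-06), and the call held without each library in turn. MYH7, the beta myosin heavy chain, whose coding sequence closely resembles that of MYH6, was at 0.289 and 0.371 CPM against 3.19 and 1.87 CPM, with 421 and 336 CPM in WT cells (log2 fold change -2.85, SE 0.35, adjusted p = 0.000345).

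Other members showed the same order between the lines by different amounts. MYL7, the atrial myosin light chain, was at 31.6 and 40.0 CPM in NKX2-5 shRNA cells, at 167 and 128 CPM in ZNF503 shRNA cells and at 3066 and 2231 CPM in WT cells, a log2 fold change between the lines of -2.04 (SE 0.18, adjusted p = 5.43e-05). TNNT2, which encodes the cardiac troponin T used to identify CMs, was at 1.70 and 2.70 CPM against 9.07 and 7.82 CPM, with 1399 and 1122 CPM in WT cells. Its ZNF503 shRNA level was thus still below 1% of WT, at 0.67%, and its NKX2-5 shRNA level was at 0.174%. MYBPC3, the myosin binding protein of the thick filament, was at 0.108 and 0.195 CPM against 2.64 and 2.22 CPM (log2 fold change -3.85, SE 0.35, adjusted p = 5.74e-05). CSRP3, a Z-disc LIM protein, had 0 and 2 counts in NKX2-5 shRNA cells and 16 and 18 counts in ZNF503 shRNA cells, a ratio of 29.6 with a 95% counting interval from 7.6 to 255. ABRA, an actin-binding protein of muscle, had 0 and 2 counts against 16 and 22 counts, a ratio of 33.1 with an interval from 8.56 to 283. CKM, the muscle creatine kinase, had 0 and 0 counts against 11 and 4 counts, a level at least 3.26-fold higher than in NKX2-5 shRNA cells, and its adjusted p of 0.00965 was 0.0637 without NKX2-5 shRNA replicate 2 and 0.0898 without ZNF503 shRNA replicate 1. TTN, the giant spring protein titin, differed least among the abundant members, at 7292 and 7090 CPM against 9941 and 9554 CPM, with 29613 and 24186 CPM in WT cells. TTN overlaps the antisense gene TTN-AS1, and the strand setting of the counting was not given in the sources used here. Its log2 fold change of -0.44 (SE 0.12, adjusted p = 0.0253) lost the threshold without NKX2-5 shRNA replicate 1 (0.137), without NKX2-5 shRNA replicate 2 (0.157) and without ZNF503 shRNA replicate 1 (0.0860).

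Calcium handling and excitation genes gave a smaller share. Their median log2 fold change was -1.01. Over all genes 8.81% were higher in ZNF503 shRNA cells and 5.92% in NKX2-5 shRNA cells at 5% FDR. Of 21 calcium handling and excitation genes tested, 8 were higher in ZNF503 shRNA cells and 0 in NKX2-5 shRNA cells. The number was 4 without NKX2-5 shRNA replicate 1, 5 without NKX2-5 shRNA replicate 2 and 4 without ZNF503 shRNA replicate 1. SLC8A1, the sodium-calcium exchanger of the myocyte membrane, was at 10.2 and 9.09 CPM in NKX2-5 shRNA cells, at 43.1 and 43.8 CPM in ZNF503 shRNA cells and at 913 and 723 CPM in WT cells (log2 fold change -2.17, SE 0.14, adjusted p = 4.88e-06). HCN4, the pacemaker channel, was at 1.59 and 2.13 CPM against 6.43 and 5.00 CPM. NPPB, which encodes the B-type natriuretic peptide, departed from the order against WT: it was at 39.3 and 56.5 CPM in NKX2-5 shRNA cells and at 114 and 83.9 CPM in ZNF503 shRNA cells, both above the 28.9 and 23.4 CPM of WT cells. The log2 fold change of NPPB between the lines was -1.04 (SE 0.19, adjusted p = 0.00372), and its adjusted p was 0.0564 without ZNF503 shRNA replicate 1.

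The cardiac transcription factors did not all go one way. Of 32 tested, 12 were higher in ZNF503 shRNA cells and 4 were higher in NKX2-5 shRNA cells at 5% FDR. The shares of all genes were 8.81% and 5.92%, and the median log2 fold change of the list was -0.47. The 12 were 4 without NKX2-5 shRNA replicate 2, 5 without NKX2-5 shRNA replicate 1 and 5 without ZNF503 shRNA replicate 1. TBX20, a T-box factor of the forming chambers, was at 5.96 and 8.52 CPM in NKX2-5 shRNA cells, at 22.2 and 23.9 CPM in ZNF503 shRNA cells and at 263 and 192 CPM in WT cells (log2 fold change -1.65, SE 0.19, adjusted p = 0.00022). ISL1, a marker of second heart field progenitors, was at 3.18 and 3.60 CPM against 10.4 and 10.4 CPM, with 185 and 144 CPM in WT cells (log2 fold change -1.60, SE 0.16, adjusted p = 0.000101). HAND1, a bHLH factor of the left ventricle and of extraembryonic mesoderm, went the other way, at 18.6 and 21.2 CPM in NKX2-5 shRNA cells against 11.4 and 7.39 CPM in ZNF503 shRNA cells (log2 fold change 1.10, SE 0.18, adjusted p = 0.00191). MEF2C did not separate the lines, at 25.5 and 24.3 CPM against 18.4 and 29.1 CPM, with overlapping libraries and an adjusted p of 0.874, while WT cells were at 1099 and 788 CPM. GATA4 was at 181 and 174 CPM against 241 and 190 CPM, above the 118 and 126 CPM of WT cells in both lines, and the lines did not differ at 5% FDR (adjusted p = 0.137).

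**Figure D2:**
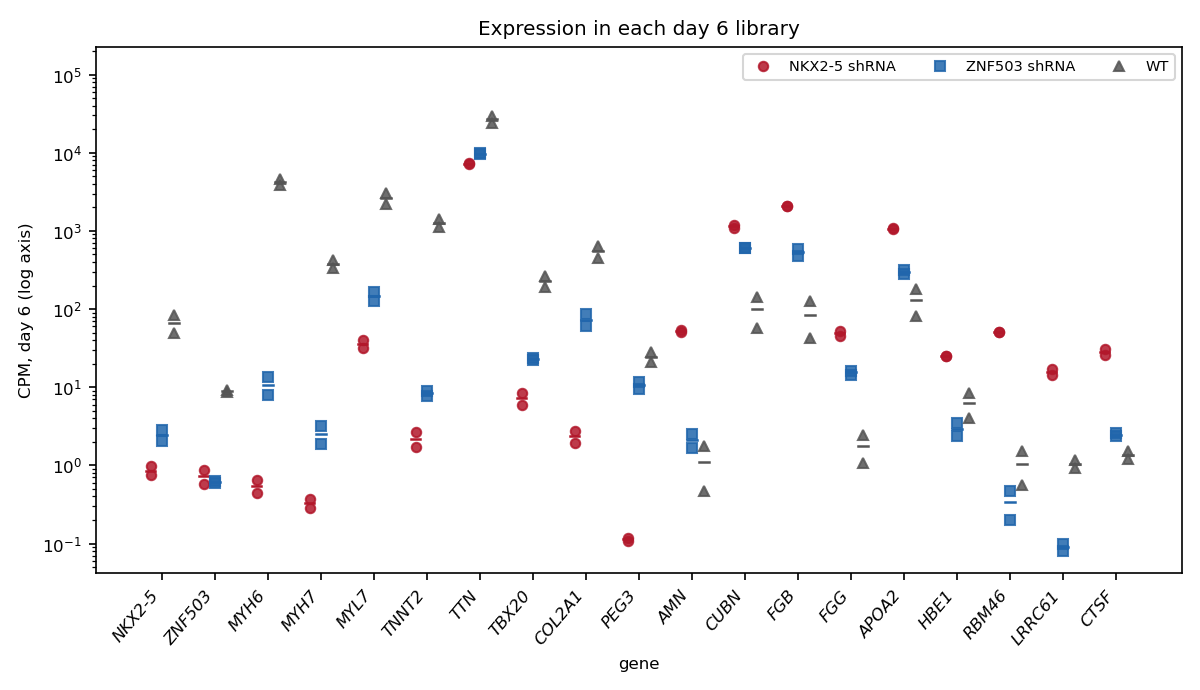
CPM of 19 genes (x axis) in each day 6 library (y axis, log scale), with NKX2-5 shRNA as red circles, ZNF503 shRNA as blue squares and WT as grey triangles. Each point is 1 library and the short bar is the group mean. MYH6 lies at 0.650 and 0.449, at 13.6 and 7.94 and at 4569 and 3862 CPM in the 3 groups, and AMN lies at 51.4 and 53.2, at 2.54 and 1.67 and at 0.472 and 1.76 CPM.

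Some smooth muscle genes were higher in ZNF503 shRNA cells. For comparison, 8.81% of all genes were higher in ZNF503 shRNA cells and 5.92% in NKX2-5 shRNA cells at 5% FDR. Of 11 smooth muscle genes tested, 5 were higher in ZNF503 shRNA cells and 0 in NKX2-5 shRNA cells at 5% FDR, with a median log2 fold change of -0.96, and the number was 2 without NKX2-5 shRNA replicate 1 or without ZNF503 shRNA replicate 1. TAGLN, the actin-bundling protein transgelin, was at 128 and 182 CPM in NKX2-5 shRNA cells, at 747 and 586 CPM in ZNF503 shRNA cells and at 446 and 337 CPM in WT cells (log2 fold change -2.10, SE 0.19, adjusted p = 5.74e-05). CALD1, the actin-binding caldesmon, and ACTA2, the smooth muscle alpha actin, did not pass (adjusted p = 0.257 and 0.465). CNN1, the smooth muscle calponin, was at 8.60 and 13.9 CPM against 53.6 and 35.2 CPM. ACTA1, the skeletal alpha actin, was at 17.0 and 29.2 CPM in NKX2-5 shRNA cells, near the 26.0 and 21.9 CPM of WT cells, and at 152 and 113 CPM in ZNF503 shRNA cells. Its log2 fold change between the lines was -2.51 (SE 0.23, adjusted p = 6.01e-05). Actin genes are close paralogs, and reads can be split between them.

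PEG3 and the collagen genes COL2A1 and COL9A1 were called higher in ZNF503 shRNA cells. PEG3 (GRCh37 chr19:57321445-57352096), a paternally expressed imprinted zinc finger gene, was at 0.108 and 0.117 CPM in NKX2-5 shRNA cells, which is 3 and 6 counts, at 11.6 and 9.53 CPM in ZNF503 shRNA cells and at 20.8 and 28.4 CPM in WT cells. The NKX2-5 shRNA libraries were thus the low ones at day 6. The log2 fold change between the lines was -6.49 (SE 0.37, adjusted p = 2.3e-06). At day 0 PEG3 was low in both lines, at 0.0490 and 0.515 CPM in NKX2-5 shRNA cells and 0.546 and 0.449 CPM in ZNF503 shRNA cells. WT cells were then at 4.67 and 4.88 CPM. The lines already differed at day 2, by -2.99 (SE 0.54, adjusted p = 0.000512 in edgeR's quasi-likelihood test). COL2A1 (GRCh37 chr12:48366750-48398337), the type II collagen of cartilage that is also made in the endocardial cushions and the notochord, was at 1.95 and 2.74 CPM against 85.9 and 59.9 CPM, with 642 and 448 CPM in WT cells (log2 fold change -4.92, SE 0.27, adjusted p = 2.3e-06). COL9A1, which codes for a chain of the type IX collagen that coats type II fibrils, had 1 and 0 counts in NKX2-5 shRNA cells and 11 and 25 counts in ZNF503 shRNA cells, a ratio of 62.8 with a 95% counting interval from 10.6 to 2547. COL3A1, the fibrillar collagen of soft tissue, went the other way, at 90.5 and 142 CPM in NKX2-5 shRNA cells against 32.0 and 19.6 CPM in ZNF503 shRNA cells (log2 fold change 2.18, SE 0.30, adjusted p = 0.000694).

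For several called genes the ZNF503 shRNA libraries were above every other library of the comparison and of WT. BMP3, a TGFβ family ligand that antagonises BMP signalling, was at 0.433 and 0.723 CPM in NKX2-5 shRNA cells, at 6.18 and 5.20 CPM in ZNF503 shRNA cells and at 0.343 and 0.0941 CPM in WT cells. BMP8A was at 0.361 and 0.567 CPM against 6.78 and 4.17 CPM, with 1.2 and 1.46 CPM in WT cells, and its reads can be shared with its paralog BMP8B. GPRC5A, a retinoic acid inducible receptor, was at 0.578 and 0.840 CPM against 6.98 and 5.04 CPM, with 0.600 and 1.22 CPM in WT cells. The adjusted p-values of edgeR's quasi-likelihood test between ZNF503 shRNA and WT were 2.53e-05 for BMP3, 0.000773 for BMP8A and 0.000105 for GPRC5A, and those between NKX2-5 shRNA and WT were 0.0559, 0.0139 (lower than WT) and 0.467. Of the 3, BMP8A was called against NKX2-5 shRNA without each library in turn. CRYAB, a small heat shock protein of muscle and lens, was instead low in NKX2-5 shRNA cells, at 0.506 and 0.782 CPM against 6.18 and 6.67 CPM in ZNF503 shRNA cells and 6.43 and 7.46 CPM in WT cells (log2 fold change between the lines -3.26, SE 0.33, adjusted p = 9.71e-05).

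Genes of the hepatic and yolk sac endoderm were high in both lines compared with WT cells and higher in NKX2-5 shRNA cells for a part of the list. Their summed level was 14273 and 14394 CPM in NKX2-5 shRNA cells, 9577 and 9581 CPM in ZNF503 shRNA cells and 1261 and 2256 CPM in WT cells. Of 24 genes tested, 6 were higher in NKX2-5 shRNA cells and 1 (VTN) was higher in ZNF503 shRNA cells at 5% FDR, against 5.92% and 8.81% of all genes, and the median log2 fold change was 0.70. VTN, the plasma adhesion protein vitronectin, had an adjusted p between 0.0828 and 0.249 without any 1 library, so that 0 genes of the list were then higher in ZNF503 shRNA cells. Leaving out 1 library gave from 2 to 4 genes higher in NKX2-5 shRNA cells, with 2 without ZNF503 shRNA replicate 1, 3 without NKX2-5 shRNA replicate 2 and 4 without either other library. The WT libraries differed from each other in this level more than the libraries of either line did, and WT enters the common estimate of error.

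Fibrinogen, the clotting precursor made of 3 chains whose genes lie side by side on chromosome 4, is described by chain. FGB, the beta chain, was at 2111 and 2060 CPM in NKX2-5 shRNA cells, at 472 and 593 CPM in ZNF503 shRNA cells and at 42.8 and 125 CPM in WT cells, with a log2 fold change between the lines of 1.97 (SE 0.39, adjusted p = 0.00621, and 0.108 without ZNF503 shRNA replicate 1). FGG, the gamma chain, was at 53.1 and 45.6 CPM against 14.5 and 16.4 CPM, with 1.07 and 2.42 CPM in WT cells (log2 fold change 1.67, SE 0.25, adjusted p = 0.00132). FGA, the alpha chain, was at 164 and 170 CPM against 104 and 115 CPM, with no overlap, but its difference of 0.61 (SE 0.30) did not pass the test (adjusted p = 0.182). FGA passed when only the 4 libraries of the lines entered the fit (adjusted p = 0.00777) and without the filter on low counts (8.82e-05). The chains were not tested against each other.

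The promoters of the fibrinogen genes are shown because hepatic promoters often carry elements for the homeobox factor HNF1. The 150 bases before each start are given 5′ to 3′ on the strand of the gene, from RefSeq in build GRCh38.p14, and capitals mark the HNF1 half-site GTTAAT or its reverse complement and the GATA site AGATAA or TGATAA on either strand. They lie at chr4:154590743-154590892 for FGA (minus strand), chr4:154562830-154562979 for FGB (plus strand) and chr4:154612657-154612806 for FGG (minus strand).
FGA: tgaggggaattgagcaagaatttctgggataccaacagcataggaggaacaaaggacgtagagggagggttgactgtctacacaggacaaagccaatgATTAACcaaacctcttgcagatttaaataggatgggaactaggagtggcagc
FGB: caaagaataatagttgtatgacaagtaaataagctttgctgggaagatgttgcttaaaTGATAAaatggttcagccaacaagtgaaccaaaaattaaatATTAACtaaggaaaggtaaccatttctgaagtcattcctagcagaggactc
FGG: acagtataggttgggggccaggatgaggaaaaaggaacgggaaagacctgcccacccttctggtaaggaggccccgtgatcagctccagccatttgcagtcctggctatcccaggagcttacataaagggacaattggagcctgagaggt
The half-site was found in this window of FGA and FGB and not of FGG. Over the 250 bases before the start, it was in 5 of the 20 promoters found for the hepatic and yolk sac list (25%), in 6 of 30 promoters of called genes higher in NKX2-5 shRNA cells (20%) and in 0 of 15 promoters of called genes higher in ZNF503 shRNA cells, and in 0 of the 17 promoters of the sarcomere list, against 3.70% of the 12565 promoters of genes tested and 6.22% of all 27305 promoters. The 6 were those of CLDN18, GYPB, GYPE, MS4A4A, SULT1E1 and UBD. The GATA site was in 7 of the 20 promoters of the hepatic and yolk sac list (35%), in 7 of the 17 found for the sarcomere list (41.2%), in 3 of the 30 (10%) and in 4 of the 15 (26.7%), against 8.47% of genes tested and 14.9% of all promoters. The NKX2-5 element TCAAGTG or TTAAGTG was in 3 of the 20 (15%), in 2 of the 17 (11.8%), in 1 of the 30 and in 1 of the 15, against 2.92% of genes tested and 4.23% of all promoters. These matches describe the letters alone.

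Other secreted proteins of the list ranged from no difference to a clear one. APOA2, an apolipoprotein of high density lipoprotein, was at 1083 and 1061 CPM in NKX2-5 shRNA cells, at 278 and 315 CPM in ZNF503 shRNA cells and at 81.4 and 183 CPM in WT cells (log2 fold change 1.86, SE 0.29, adjusted p = 0.00155). APOA1, the main protein of the same particle, was at 1085 and 1165 CPM against 1037 and 940 CPM, and its difference of 0.19 (SE 0.30) did not pass the test (adjusted p = 0.721). AFP, the fetal serum protein, was at 677 and 725 CPM against 484 and 451 CPM, with a difference of 0.58 (SE 0.26, adjusted p = 0.154) that passed with only the 4 libraries of the lines (adjusted p = 0.0059) and without the filter on low counts (3.48e-05). TTR, the thyroxine carrier, was at 1187 and 1233 CPM against 1382 and 1521 CPM and also did not differ at 5% FDR (adjusted p = 0.471). All 4 were above both WT libraries in both lines.

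AMN was called higher in NKX2-5 shRNA cells and its partner gene CUBN was not called. AMN (GRCh37 chr14:103389000-103399933) encodes amnionless, the membrane anchor of the cubilin receptor complex of visceral yolk sac endoderm, kidney and gut. It was at 51.4 and 53.2 CPM in NKX2-5 shRNA cells, at 2.54 and 1.67 CPM in ZNF503 shRNA cells and at 0.472 and 1.76 CPM in WT cells. Both NKX2-5 shRNA libraries stood above all others, and the log2 fold change between the lines was 4.65 (SE 0.36, adjusted p = 2.44e-05). CUBN, its partner cubilin, was at 1187 and 1101 CPM against 609 and 601 CPM, with 57.2 and 144 CPM in WT cells. The difference of 0.92 (SE 0.30) did not pass the test (adjusted p = 0.0566), although its adjusted p was 0.00055 when only the 4 libraries of the lines entered the fit and 0.0399 with the replicate number as a block.

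The transcription factors of endoderm were not higher in NKX2-5 shRNA cells as a group. Of 15 tested, 1 (CDX2) was higher in NKX2-5 shRNA cells and 3 were higher in ZNF503 shRNA cells at 5% FDR. These are 6.67% and 20%, against 5.92% and 8.81% of all genes, and the median log2 fold change was -0.31. HNF4A, a nuclear receptor of hepatocytes and yolk sac, was at 479 and 508 CPM against 562 and 509 CPM, both far above the 36.2 and 83.9 CPM of WT cells, with no difference passing the test between the lines (adjusted p = 0.802). HHEX, a homeobox gene of foregut endoderm and of blood islands, was at 8.05 and 7.60 CPM in NKX2-5 shRNA cells and at 19 and 24.1 CPM in ZNF503 shRNA cells (log2 fold change -1.47, SE 0.17, adjusted p = 0.000283). Leaving out 1 library gave 0 genes higher in NKX2-5 shRNA cells in every case but that without ZNF503 shRNA replicate 2.

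Embryonic and fetal globin genes and RUNX1 were the blood genes that were higher in NKX2-5 shRNA cells. Among all genes 5.92% were higher in NKX2-5 shRNA cells and 8.81% in ZNF503 shRNA cells at 5% FDR. Of 16 blood genes tested, 4 were higher in NKX2-5 shRNA cells and 0 were higher in ZNF503 shRNA cells at 5% FDR, with a median log2 fold change of 0.64 and 2 genes without NKX2-5 shRNA replicate 2 or without ZNF503 shRNA replicate 1. HBE1, the embryonic epsilon globin, was at 25 and 24.8 CPM in NKX2-5 shRNA cells, at 2.39 and 3.53 CPM in ZNF503 shRNA cells and at 4.03 and 8.42 CPM in WT cells (log2 fold change 3.05, SE 0.31, adjusted p = 0.000106). It was not called without ZNF503 shRNA replicate 1. HBG2, a fetal gamma globin nearly identical to HBG1, was at 2.02 and 2.19 CPM against 0.299 and 0.437 CPM (log2 fold change 2.49, SE 0.45, adjusted p = 0.00359). RUNX1, a transcription factor of blood stem cells, was at 4.30 and 4.18 CPM against 1.99 and 1.75 CPM, with an adjusted p of 0.0313 that was at least 0.0883 without any 1 of the libraries. TAL1, the bHLH factor of early blood and endothelium, was at 11.4 and 9.77 CPM against 7.08 and 7.11 CPM and did not pass (adjusted p = 0.162).

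GYPE, a glycophorin gene of the red cell membrane family, was at 2.09 and 3.22 CPM in NKX2-5 shRNA cells, at 0.199 and 0.199 CPM in ZNF503 shRNA cells and at 1.33 and 2.28 CPM in WT cells (log2 fold change 3.73, SE 0.47, adjusted p = 0.000417). The NKX2-5 shRNA libraries overlapped with WT, and the ZNF503 shRNA libraries were the low ones. The glycophorin genes are near-identical copies, and their reads may be shared. HBE1, by contrast, stood above WT in NKX2-5 shRNA cells (adjusted p = 0.000105).

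HOX genes gave the highest median of all lists. Of 42 HOX and CDX genes listed, 10 were expressed highly enough to be tested, with a median log2 fold change of 1.82. At 5% FDR 6 of them were higher in NKX2-5 shRNA cells and 0 in ZNF503 shRNA cells. The shares of all genes were 5.92% and 8.81%. The filter on low counts passes genes partly through the group where they are high, so the 10 are not a sample of the 42. The number was 3 without NKX2-5 shRNA replicate 1, without NKX2-5 shRNA replicate 2 or without ZNF503 shRNA replicate 1. HOXB3 (GRCh37 chr17:46626232-46682274), an anterior HOX gene of hindbrain and foregut mesoderm, had 73 and 102 counts in NKX2-5 shRNA cells and 2 and 0 counts in ZNF503 shRNA cells, a ratio of 50.2 with a 95% counting interval from 13.7 to 418. HOXB2, its neighbour, was at 2.67 and 3.13 CPM against 0.399 and 0.874 CPM, below the 9.73 and 8.87 CPM of WT cells in both lines. Among NKX2-5 shRNA, ZNF503 shRNA and WT cells both genes were thus highest in WT cells, at 4.42 and 7.88 CPM for HOXB3. The ZEB2 shRNA libraries of day 6 were higher still, at 12.4 and 9.99 CPM for HOXB3 and at 13.0 and 18.6 CPM for HOXB2. CDX2, the caudal homeobox factor of trophectoderm and hindgut, was instead near the limit of detection in WT cells, at 0.0857 and 0.235 CPM, and at 5.20 and 4.28 CPM in NKX2-5 shRNA cells against 1.65 and 1.71 CPM in ZNF503 shRNA cells. Its log2 fold change of 1.49 (SE 0.34, adjusted p = 0.0138) had adjusted p-values of 0.118, 0.0605 and 0.0874 without NKX2-5 shRNA replicate 1, NKX2-5 shRNA replicate 2 and ZNF503 shRNA replicate 1.

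**Figure D3:**
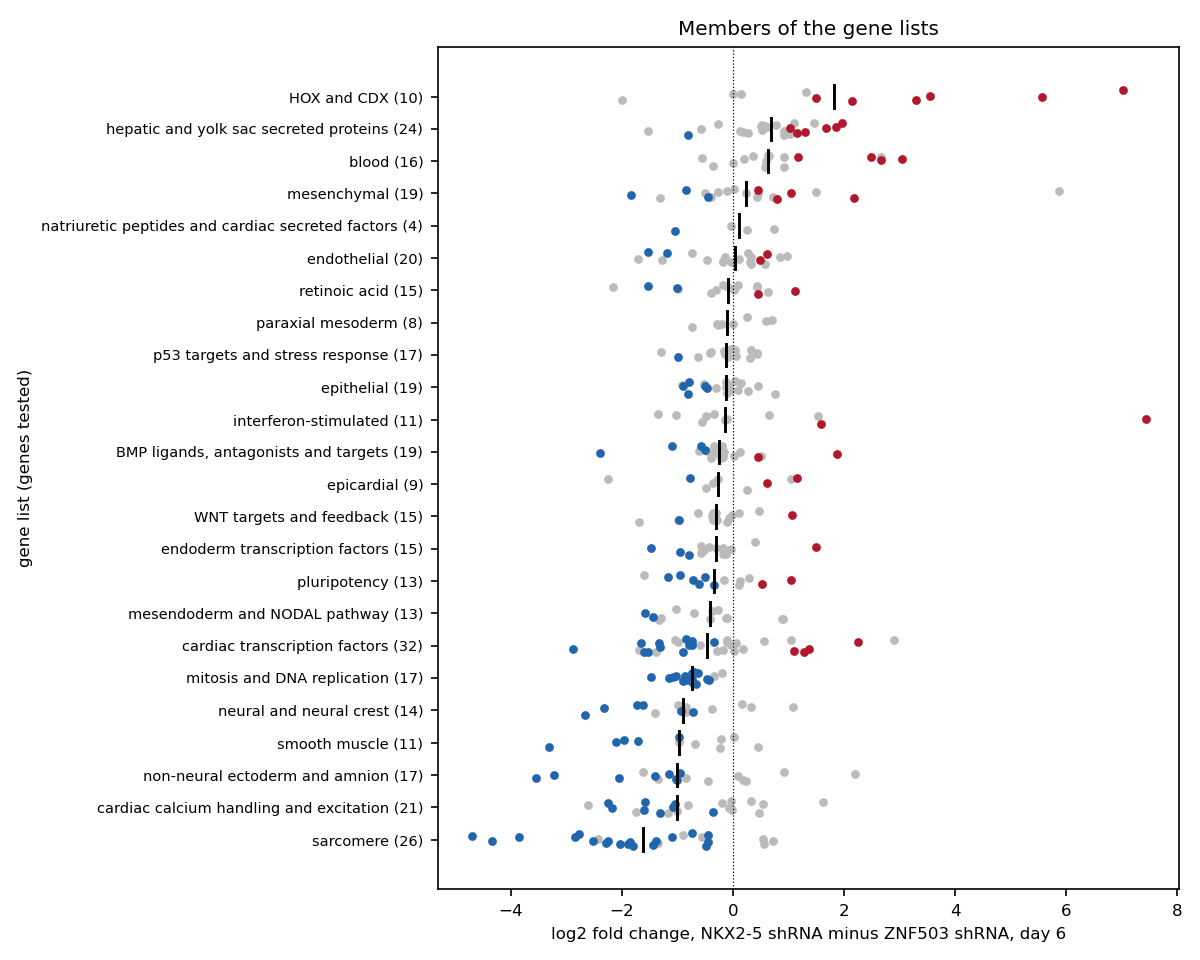
Log2 fold change at day 6 (x axis, NKX2-5 shRNA minus ZNF503 shRNA) of each tested gene in the 24 lists (y axis, with the number tested). Red and blue points passed 5% FDR toward NKX2-5 and ZNF503 shRNA cells, grey points did not, and the black bar is the list median, which runs from -1.61 for sarcomere genes to 1.82 for HOX and CDX genes.

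Cell cycle genes were lower in NKX2-5 shRNA cells across nearly the whole list. Over all genes 8.81% were higher in ZNF503 shRNA cells and 5.92% in NKX2-5 shRNA cells at 5% FDR. Of 17 genes of mitosis and DNA replication tested, 15 were higher in ZNF503 shRNA cells and 0 in NKX2-5 shRNA cells at 5% FDR, and their summed level was 654 and 719 CPM in NKX2-5 shRNA cells, 1075 and 1131 CPM in ZNF503 shRNA cells and 2565 and 2589 CPM in WT cells. The median log2 fold change was -0.73, and the number fell to 8 without NKX2-5 shRNA replicate 1 and to 12 without NKX2-5 shRNA replicate 2 or ZNF503 shRNA replicate 1. MKI67, the proliferation antigen Ki-67, was at 27.1 and 32.3 CPM in NKX2-5 shRNA cells, at 63.9 and 57.7 CPM in ZNF503 shRNA cells and at 102 and 125 CPM in WT cells (log2 fold change -1.03, SE 0.13, adjusted p = 0.000512). TOP2A, the topoisomerase of dividing cells, was at 94.1 and 99.8 CPM against 142 and 177 CPM, with 659 and 657 CPM in WT cells. The members that did not pass were PCNA, the replication clamp, and AURKA, a spindle kinase, both with overlapping libraries (adjusted p = 0.145 and 0.432). CDKN1A, the p53 target that holds the cell cycle, was at 4.66 and 5.82 CPM in NKX2-5 shRNA cells against 11.7 and 9.25 CPM in ZNF503 shRNA cells, and a relation to the cell cycle genes was not tested. Its adjusted p of 0.0467 was between 0.0551 and 0.249 without any 1 library and 0.0551 with the replicate number as a block.

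A part of the ectodermal and neural genes was higher in ZNF503 shRNA cells. For comparison, 8.81% of all genes were higher in ZNF503 shRNA cells and 5.92% in NKX2-5 shRNA cells at 5% FDR. Of 17 genes of non-neural ectoderm and amnion tested, 8 were higher in ZNF503 shRNA cells and 0 in NKX2-5 shRNA cells at 5% FDR, with a median log2 fold change of -1.0 with 4 genes without NKX2-5 shRNA replicate 2 and 5 without NKX2-5 shRNA replicate 1. Of 14 neural and neural crest genes tested, 6 were higher in ZNF503 shRNA cells and 0 in NKX2-5 shRNA cells, with a median of -0.89 and 3 genes without NKX2-5 shRNA replicate 1 or without ZNF503 shRNA replicate 1. TFAP2A, a factor of surface ectoderm and neural crest, was at 0.578 and 0.899 CPM in NKX2-5 shRNA cells, at 3.29 and 3.06 CPM in ZNF503 shRNA cells and at 3.86 and 5.18 CPM in WT cells (log2 fold change -2.05, SE 0.32, adjusted p = 0.00146). SOX2, which marks pluripotent and neural progenitors, was at 0.397 and 0.606 CPM against 2.89 and 3.65 CPM, with 2.44 and 2.49 CPM in WT cells (log2 fold change -2.66, SE 0.43, adjusted p = 0.002). NKX2-5 shRNA libraries were below both other groups for these 2 genes. TUBB3, a neuronal tubulin, was instead above WT in both lines, at 78.7 and 95.1 CPM in NKX2-5 shRNA cells and at 186 and 146 CPM in ZNF503 shRNA cells against 16.2 and 23.2 CPM in WT cells. The log2 fold change of TUBB3 between the lines was -0.93 (SE 0.18, adjusted p = 0.00559), and its adjusted p was 0.0568 without NKX2-5 shRNA replicate 1 and 0.0731 without ZNF503 shRNA replicate 1. EOMES, a T-box factor of mesendoderm, followed the same order at 3.76 and 5.80 CPM against 17.0 and 12.5 CPM, with 10.8 and 10.9 CPM in WT cells (log2 fold change -1.59, SE 0.20, adjusted p = 0.00042).

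The remaining lists showed few or mixed differences. Their counts stand beside 5.92% of all genes higher in NKX2-5 shRNA cells and 8.81% higher in ZNF503 shRNA cells at 5% FDR. Endothelial genes (10% each way) and WNT genes (6.67% each way) were near these shares. Of 19 epithelial genes 5 were higher in ZNF503 shRNA cells and 0 in NKX2-5 shRNA cells, with a median of -0.12. KRT8, a keratin of simple epithelia, was at 480 and 561 CPM against 966 and 838 CPM (log2 fold change -0.79, SE 0.12, adjusted p = 0.00166), while its partner type KRT19 overlapped between the lines at 1498 and 1584 CPM against 1549 and 1444 CPM. Among 19 mesenchymal genes 4 were higher in NKX2-5 shRNA cells and 3 in ZNF503 shRNA cells, and among 20 endothelial genes 2 went each way. Of 13 pluripotency genes 2 were higher in NKX2-5 shRNA cells and 6 in ZNF503 shRNA cells. ZFP42, a zinc finger gene of naive pluripotency and trophoblast, was at 168 and 175 CPM in NKX2-5 shRNA cells against 72.9 and 92.9 CPM in ZNF503 shRNA cells and 58.6 and 63.1 CPM in WT cells (log2 fold change 1.05, SE 0.14, adjusted p = 0.000512). Of 15 retinoic acid genes 2 went each way, with CYP26A1, the enzyme that degrades retinoic acid, at 6.47 and 9.77 CPM against 23.2 and 23.7 CPM (log2 fold change -1.52, SE 0.22, adjusted p = 0.000891). Of 13 mesendoderm and NODAL pathway genes 2 were higher in ZNF503 shRNA cells and 0 in NKX2-5 shRNA cells. Of 19 BMP genes 4 were higher in ZNF503 shRNA cells and 2 in NKX2-5 shRNA cells, of 15 WNT genes 1 went each way, of 9 epicardial genes 2 were higher in NKX2-5 shRNA cells and 1 in ZNF503 shRNA cells, and of 11 interferon-stimulated genes 2 were higher in NKX2-5 shRNA cells and 0 went the other way. Of 4 natriuretic peptide and secreted factor genes NPPB alone passed, and of 17 p53 and stress genes CDKN1A alone passed. These small counts moved with single libraries: the 6 pluripotency genes were 1 without NKX2-5 shRNA replicate 2 and 2 without NKX2-5 shRNA replicate 1 or ZNF503 shRNA replicate 1, the 4 BMP genes were 0 without NKX2-5 shRNA replicate 1 and 1 without ZNF503 shRNA replicate 1, and the 5 epithelial genes were 3 without NKX2-5 shRNA replicate 1, NKX2-5 shRNA replicate 2 or ZNF503 shRNA replicate 1. None of 8 paraxial mesoderm genes passed 5% FDR in edgeR's quasi-likelihood test, with the lowest adjusted p of 0.221 for the NOTCH ligand DLL1.

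RBM46, LRRC61, ZNF662 and CTSF were called higher in NKX2-5 shRNA cells and belonged to none of the lists. RBM46 (GRCh37 chr4:155702365-155749965), an RNA-binding protein of germ cells, was at 50.4 and 50.9 CPM in NKX2-5 shRNA cells, at 0.199 and 0.476 CPM in ZNF503 shRNA cells and at 0.557 and 1.51 CPM in WT cells (log2 fold change 7.16, SE 0.38, adjusted p = 2.3e-06). LRRC61 (GRCh37 chr7:150020352-150035245), a leucine-rich repeat protein, had 398 and 864 counts against 2 and 2 counts, a ratio of 181 with a 95% counting interval from 70.5 to 665. ZNF662, a zinc finger gene, was at 23.5 and 21.3 CPM against 1.15 and 0.596 CPM, and CTSF, the lysosomal protease cathepsin F, was at 30.6 and 26.1 CPM against 2.59 and 2.34 CPM. All 4 were also above both WT libraries in NKX2-5 shRNA cells.

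IAH1 separated the lines without separating NKX2-5 shRNA cells from WT cells at day 6. This gene of an esterase family (GRCh37 chr2:9613787-9636672) had 186 and 450 counts in NKX2-5 shRNA cells and 2 and 2 counts in ZNF503 shRNA cells, a ratio of 91.2 with a 95% counting interval from 35.5 to 336. In CPM it was at 6.72 and 8.79 in NKX2-5 shRNA cells and at 8.49 and 10.1 in WT cells, and the ranges overlap. The noncoding RNA MIR4458HG had the same pattern, with 57 and 93 counts in NKX2-5 shRNA cells, 0 and 0 counts in ZNF503 shRNA cells, at least 13.0-fold higher against 3 counts per library, and 1.84 and 2.61 CPM in WT cells against 2.06 and 1.82 CPM in NKX2-5 shRNA cells. DDX43, a germline RNA helicase, had 81 and 158 counts against 0 and 0 counts, at least 20.1-fold higher by the same floor. In the day 6 ZEB2 shRNA libraries IAH1, MIR4458HG and DDX43 were each at 0 and 0 CPM. The low level of these genes was thus not particular to ZNF503 shRNA cells. Of the 39 called genes higher in NKX2-5 shRNA cells, 9 had no count in either ZNF503 shRNA library and 22 had at most 3 in each, against 1 and 6 of the 26 called genes in the other direction. The ZNF503 shRNA libraries were the shallower ones, and 3 counts stood for 0.150 and 0.119 CPM there against 0.108 and 0.0586 CPM in NKX2-5 shRNA cells. The directions are therefore not comparable in these numbers, and the share over all genes was not computed.

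LTB, TNFRSF9, CXCL1 and OAS3 were called at means in NKX2-5 shRNA cells from 0.654 CPM for OAS3 to 5.91 CPM for TNFRSF9. TNFRSF9 was named by the rule for called genes, and LTB, CXCL1 and OAS3 are examples chosen after their values were seen. LTB, the lymphotoxin beta ligand, was at 4.23 and 5.55 CPM in NKX2-5 shRNA cells, at 0.0997 and 0.238 CPM in ZNF503 shRNA cells and at 0.772 and 0.871 CPM in WT cells (log2 fold change 4.78, SE 0.47, adjusted p = 8.77e-05). TNFRSF9, the costimulatory receptor 4-1BB, was at 4.59 and 7.23 CPM against 0.548 and 0.397 CPM, with 0.686 and 0.941 CPM in WT cells. Both calls held without each library in turn. CXCL1, a chemokine, was at 3.11 and 3.83 CPM against 0 and 0.238 CPM and was not called without ZNF503 shRNA replicate 1. OAS3, an interferon-induced enzyme, had 20 and 30 counts against 0 and 0 counts, at least 4.37-fold higher, and was called in none of those fits, with an adjusted p of 0.0554 without ZNF503 shRNA replicate 1.

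The same lines were then compared at earlier days, in libraries that played no part in the day 6 calls. At 5% FDR 4366 genes (25.8%) differed at day 0 and 6520 (39.5%) differed at day 2. With fold thresholds at 10% FDR, 6.99% of genes differed by 2-fold at day 0 (3.83% higher in NKX2-5 shRNA cells and 3.16% higher in ZNF503 shRNA cells) and 3.98% differed by 4-fold at day 2 (2.35% and 1.63%). Of the 39 called genes higher in NKX2-5 shRNA cells at day 6, 24 were tested at day 0, and 16 of these were already higher in NKX2-5 shRNA cells at 5% FDR, against 12.4% of all genes, with 1 in the opposite direction. At day 2, 17 were tested, 13 were higher in NKX2-5 shRNA cells, against 19.8% of all genes, and 1 was lower. Of the 26 called genes higher in ZNF503 shRNA cells, 19 were tested at day 0, with 7 in the same direction, against 13.4% of all genes, and 2 in the opposite one. At day 2, 16 were tested, with 6 in the same direction, against 19.7% of all genes, and 3 in the opposite one. Genes that were tested at the earlier days are those with enough counts there, so these numbers do not describe all called genes. The filter also passes a gene through the line where it is high. SPESP1, for example, had 39 and 47 counts in NKX2-5 shRNA cells at day 0 and 0 and 0 in ZNF503 shRNA cells. The counts in the same direction are therefore partly built in, and they are not directly comparable with the shares of all genes.

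RBM46, LRRC61, ZNF662, IAH1, CTSF and HBE1 differed in undifferentiated cells. RBM46 was at 95.4 and 101 CPM in NKX2-5 shRNA cells and at 3.43 and 2.48 CPM in ZNF503 shRNA cells in the day 0 libraries (log2 fold change 5.07, SE 0.16, adjusted p = 7.18e-09), with 6.37 and 7.11 CPM in WT cells. ZNF662 was at 11.5 and 9.33 CPM against 0.109 and 0.0660 CPM at day 0, with 1.52 and 1.42 CPM in WT cells. CTSF was at 8.94 and 9.93 CPM against 3.28 and 3.80 CPM at day 0, with 1.62 and 1.24 CPM in WT cells, and its log2 fold change was 1.41 at day 0, 3.40 at day 2 and 3.52 at day 6. HBE1 was at 1.35 and 1.70 CPM against 0.175 and 0.238 CPM at day 0 (log2 fold change 2.85, SE 0.40, adjusted p = 0.000462). IAH1 had 159 and 222 counts against 0 and 0 counts at day 0, and WT cells had 16 and 5. These genes thus separated the lines before CHIR99021 was added, and whether this follows from the targeted gene, the shRNA or the infected population cannot be told apart in a single line per gene.

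AMN, COL2A1 and MYH6 were called at day 6 and did not differ at 5% FDR at the earlier days, with adjusted p-values of 0.549, 0.52 and 0.696 at day 0. AMN was at 0.164 and 0.220 CPM in NKX2-5 shRNA cells and at 0.159 and 0.332 CPM in ZNF503 shRNA cells at day 2 (adjusted p = 0.854), and the difference between the lines was 4.78 larger at day 6 on the log2 scale (SE 0.77, adjusted p = 0.000349 for the interaction of line and day in edgeR's quasi-likelihood test). COL2A1 was at 1.04 and 1.72 CPM against 1.77 and 1.42 CPM at day 2, and its difference moved by -4.52 (SE 0.47, adjusted p = 3.80e-06). MYH6 had 3 and 10 counts against 14 and 0 counts at day 2, and its difference moved by -4.75 (SE 1.09, adjusted p = 0.00614). In all, the interaction passed 8-fold and 1% FDR for 159 of 17358 genes (0.916%), 50 (0.288%) toward NKX2-5 shRNA cells and 109 (0.628%) toward ZNF503 shRNA cells. Of the 65 called genes, 14 were among the 159. The interaction contains the day 6 difference by which the 65 were selected, in the same libraries, so this overlap is partly built in.

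Some genes with a higher level in NKX2-5 shRNA cells at day 2 were higher in ZNF503 shRNA cells at day 6. ISL1 was at 3.78 and 3.52 CPM in NKX2-5 shRNA cells, at 0.318 and 0.190 CPM in ZNF503 shRNA cells and at 2.02 and 2.58 CPM in WT cells at day 2, so that the ZNF503 shRNA libraries were the low ones. The log2 fold change between the lines was 3.67 (SE 0.34, adjusted p = 1.52e-06) at day 2 and -1.60 at day 6. SOX17, an endoderm and endothelial factor, was at 54.6 and 69.7 CPM against 3.32 and 4.41 CPM at day 2, with 57.0 and 62.6 CPM in WT cells (log2 fold change 4.07, SE 0.18, adjusted p = 6.15e-10), and at day 6 it was at 30.6 and 37.2 CPM against 56.1 and 44.7 CPM, which did not pass (adjusted p = 0.0944). HHEX was at 68.8 and 74.0 CPM against 14 and 21.2 CPM at day 2, with 52.0 and 51.6 CPM in WT cells, and CYP26A1 was at 485 and 556 CPM against 75.3 and 106 CPM, with 658 and 710 CPM in WT cells. NKX2-5 shRNA libraries were closer to WT than ZNF503 shRNA libraries for these 4 genes at day 2. The muscle genes TTN and SLC8A1 followed the same course. TTN was at 111 and 93.7 CPM against 23.2 and 17.9 CPM at day 2, with 60.2 and 67.3 CPM in WT cells (log2 fold change 2.30, SE 0.13, adjusted p = 9.17e-09), and at day 6 ZNF503 shRNA cells were the higher line.

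FSHR and ABCC9 were called at day 6 and differed in the opposite direction at day 2. FSHR, the follicle stimulating hormone receptor, was at 4.52 and 3.39 CPM in NKX2-5 shRNA cells against 0.125 and 0.902 CPM in ZNF503 shRNA cells at day 2, and at 0.289 and 0.449 CPM against 4.94 and 4.53 CPM at day 6, with a log2 fold change of 3.59 at day 2 and -3.60 at day 6. ABCC9, the sulfonylurea receptor of cardiac and vascular potassium channels, was at 3.12 and 2.33 CPM against 0.273 and 0.522 CPM at day 2 and at 0.253 and 0.234 CPM against 2.24 and 1.75 CPM at day 6. In both genes the line that was high at day 2 was the low line at day 6, with no overlap at either day. LEF1, the WNT effector, turned the other way, at 4.16 and 5.59 CPM against 20.3 and 23.1 CPM at day 2 and at 4.98 and 6.12 CPM against 2.04 and 3.22 CPM at day 6, where its adjusted p of 0.0109 was 0.0859 without NKX2-5 shRNA replicate 2 and 0.106 without ZNF503 shRNA replicate 1.

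**Figure D4:**
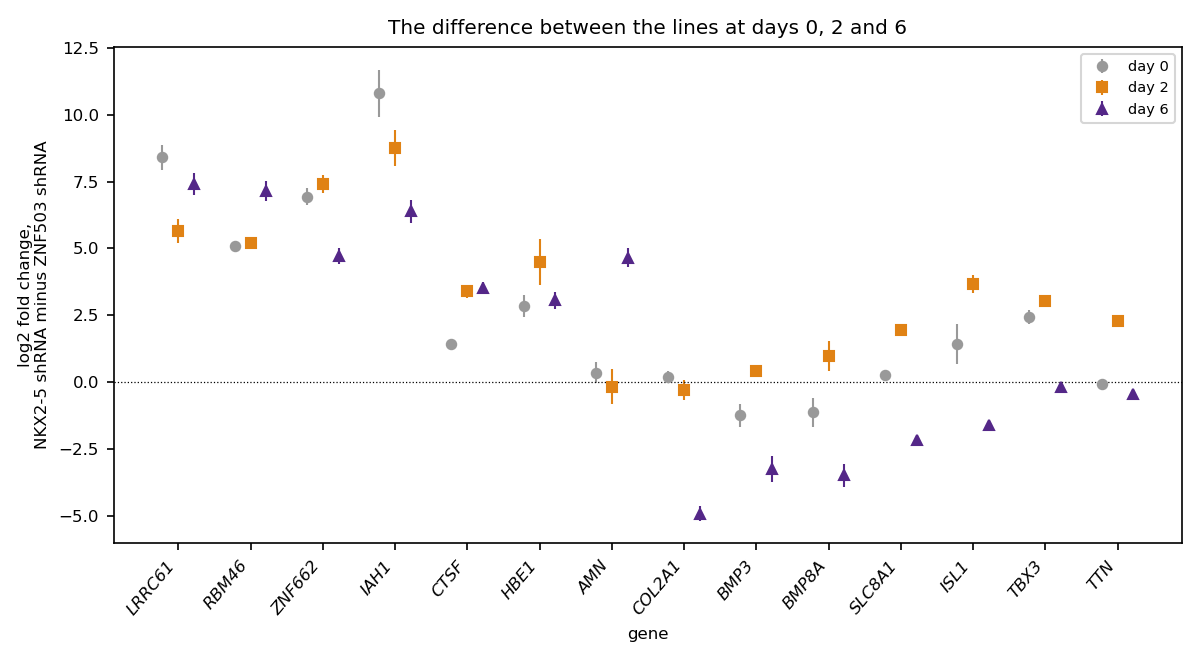
Log2 fold change (y axis, NKX2-5 shRNA minus ZNF503 shRNA, error bars 1 SE) of 14 genes (x axis) at day 0 (grey circles), day 2 (orange squares) and day 6 (purple triangles), each day fitted by itself. RBM46 stays between 5.07 and 7.16, AMN is at 4.65 at day 6, and ISL1 passes from 3.67 at day 2 to -1.60 at day 6.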

How the data were processed

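The authors sequenced total RNA (TruSeq stranded) and deposited raw read counts per RefSeq accession. Per the labels and the submitters' processing notes, reads were aligned with TopHat2 2.0.14, Bowtie2 2.2.1.0 and SAMtools 0.1.19.0 to hg19 (GRCh37), and the methods state that reads in RefSeq gene regions were counted with RSeQC. Of 41627 accessions, 40285 (96.8%) matched a symbol in the RefSeq names table, and the accession with the largest total stood for each of 23189 symbols. The 4 day 10 columns whose values do not follow the accessions were not used, and 24 of the 34 libraries entered a fit.

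Counts of the 4 day 6 groups were scaled by TMM and filtered with filterByExpr, and the contrast NKX2-5 shRNA minus ZNF503 shRNA was tested with edgeR 4.0.16 (quasi-likelihood, prior count 0.125, R 4.3.3, limma 3.58.1) with Benjamini-Hochberg adjustment across the whole table. Days 0 and 2 were fitted separately, and the interaction in a fit of days 2 and 6. Alternatives were RLE, no filter, DESeq2 1.42.0, a replicate block, other sets of libraries and leaving out each library. Ratios have exact 95% counting intervals and at-least folds use 3 counts per library. Both cover counting error only.

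Named genes were the targeted genes, up to 12 of the largest called changes in each direction at 5 CPM or more, the 10 most abundant called genes and, per list, up to 3 called genes in each direction and the 2 most abundant (71 genes). At 5 CPM or more there were 8 called genes higher in NKX2-5 shRNA cells and 9 higher in ZNF503 shRNA cells, and all were taken. A further 79 genes were named as examples after their values were seen. The members and the 24 lists were chosen with earlier results of these data known. In simulated counts, tested on 16169 genes for this contrast, 100 of 100 genes changed 16-fold were called, and 8 unchanged genes passed 5% FDR. The changed genes were drawn above a minimum level, and all genes were given the same spread between replicates. The simulation therefore checks the fit and does not measure how many real differences are found, least of all at few counts. Gene coordinates are GENCODE v44 lifted to GRCh37, and promoters are RefSeq GRCh38.p14. Results for some genes are not reported here.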

Additional observations from a re-analysis of the deposited data

Results flagged for a closer look

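The difference between the lines at day 6 was set against that at day 2 for the genes named in the text, by the interaction of line and day in edgeR's quasi-likelihood test with Benjamini-Hochberg adjustment. The genes given here passed 8-fold and 1% FDR, each with its change of the log2 difference. The change was toward NKX2-5 shRNA cells for AMN (4.78), LEF1 (3.25), TAL1 (6.05) and OAS3 (7.25). It was toward ZNF503 shRNA cells for the muscle, matrix and channel genes MYH6 (-4.75), MYL11 (-3.95), CRYAB (-5.16), COL2A1 (-4.52), COL9A1 (-4.50), SLC8A1 (-4.13), ABCC9 (-6.01) and KCNK13 (-7.43), and for the receptor FSHR (-7.18). Transcription factors with a change in that direction were ISL1 (-5.25), TBX3 (-3.24), HHEX (-3.51) and SOX17 (-4.62). The ligands BMP3 (-3.64), BMP8A (-4.49) and the retinoic acid enzyme CYP26A1 (-4.03) also changed in that direction. The adjusted p-values ran from 2.70e-10 for SLC8A1 to 0.00614 for MYH6. OAS3 had no count in ZNF503 shRNA cells at day 6, so its size depends on the prior count.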

How the results depend on the processing

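The number of called genes at day 6 (65) was 66 with RLE size factors, 94 without the filter on low counts, 74 with DESeq2, 58 with only the 4 libraries of the lines and 323 at 4-fold and 10% FDR. It ranged from 29 (without ZNF503 shRNA replicate 1) to 51 when 1 library was left out. The number at 5% FDR (2422) was 2487 with RLE, 3506 without the filter, 2697 with DESeq2 and 3831 in 1 fit of all days, and ranged from 905 (without NKX2-5 shRNA replicate 1) to 3743 (without ZNF503 shRNA replicate 2), with 938 without NKX2-5 shRNA replicate 2 and 921 without ZNF503 shRNA replicate 1. With the replicate number as a block 56 genes were called and 2086 passed 5% FDR. The labels tie the number to no shared batch, and same-numbered libraries of the lines did not deviate together (r = -0.087). Under the block ATP2A2, LIN28A and CDKN1A lost 5% FDR and CUBN gained it. Directions turned for genes that did not pass the test. Leaving out 1 library gave -0.095 to 0.51 for ZNF503, -0.20 to 0.15 for BMP10, -0.00067 to 0.093 for KRT19, -0.034 to 0.078 for BAMBI, -0.13 to 0.063 for MDM2, -0.23 to 0.44 for MEF2C and -0.43 to 0.0093 for AURKA on the log2 scale. BAMBI was at -0.0012 with RLE and at -0.00094 with DESeq2. The cause was not tested. Over the 150 genes followed and all alternatives, 1492 values kept direction and side of the threshold, 126 lost the threshold, 19 gained it and 11 turned. Depth limits genes with a few counts in 1 line, for which a ratio is known only within its counting interval.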
